A study of Rattus norvegicus with 6 samples.

Results

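AMP-activated protein kinase (AMPK) subunits and the kinases that switch AMPK on were followed in primary rat vascular smooth muscle cells (VSMCs) in osteogenic media (OM), with and without empagliflozin. The members are the 10 genes Prkaa1, Prkaa2, Prkab1, Prkab2, Prkag1, Prkag2, Stk11, Strada, Cab39 and Camkk2, chosen by symbol from the 13526 genes of the deposited table, and all 10 are listed in it. All 6 samples were wild-type VSMCs from the thoracic aorta of male rats, grown in OM containing 10 mM β-GP (β-glycerophosphate) and 3.5 mM CaCl2. The OM plus EMPA group (3 samples) also received 1 μM empagliflozin, which blocks the renal glucose carrier SGLT2, and the OM group (3 samples) did not. Sample names and columns read Pi+E and Pi for these groups, and Pi stands in the paper for inorganic phosphate, a separate treatment. The groups are called by the OM of the labels' treatment protocol, and this difference in naming was not resolved. The labels give 5 days of treatment and the paper's legend a shorter time. No source used here gives the age of the rats, and whether replicates were separate cultures or rats is stated by neither the labels nor the paper, so the p-values reflect the spread among these samples alone, which may be technical.

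AMPK is a heterotrimer of a catalytic α subunit, a scaffolding β subunit that binds glycogen, and a γ subunit that binds AMP, ADP and ATP. When the cell's energy falls, AMP or ADP bound to γ favours phosphorylation of the activation loop of α by LKB1, which is encoded by Stk11 and works in a complex with the pseudokinase STRAD and the scaffold MO25. Calcium raises AMPK activity by another route, through the calmodulin-dependent kinase CaMKK2. Active AMPK slows the synthesis of fatty acids, sterols and protein and favours oxidation and autophagy. In smooth muscle it is known for restraining proliferation and calcification. Most of this control is exerted on protein by phosphorylation, which RNA-seq does not measure.

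Expression is given in TPM, a measure of transcripts that is corrected for their length, so levels can be compared between genes. TPM come to nearly the same total in each library and keep no record of depth. Transcripts of the mitochondrial genome took 10.7 ± 0.312% of TPM with empagliflozin and 8.90 ± 0.852% without it (SD, n = 3 each), and TPM of all genes share a fixed total. On the second principal component, with 18.1% of the variance, OM plus EMPA replicate 1 lay apart at 17.63 against -9.35 to 5.59 for the others. Of 8 smooth muscle markers 7 were listed, all but Des, and their summed level was 2478 to 2925 TPM with empagliflozin and 1756 to 2158 TPM without it. Tagln made up most of this sum, with means of 2052 and 1528 TPM. Myocd was listed with a mean under 1 TPM and was therefore not tested. Of the 6 tested, 4 rose (Acta2, Tagln, Cnn1 and Lmod1). Smtn and Myh11 were not called, with log2 fold changes of 0.15 and -0.17 (limma adjusted p = 0.166 and 0.455). None of 6 endothelial markers was listed, and of 8 macrophage and leukocyte markers only Cd14 and Cd68 were, with Ptprc not listed. Those 2 summed to 30.1 to 40.0 TPM and 40.5 to 44.3 TPM, and Cd68 fell, at 7.49 ± 2.23 against 13.8 ± 1.07 TPM (SD, n = 3 each, log2 fold change -0.83, limma adjusted p = 0.0378). The 4 fibroblast markers summed to 4636 to 5409 TPM and 6092 to 6936 TPM, and of them Dcn and Pdgfra fell. Pi16 and Lum were not called, with log2 fold changes of 0.26 and -0.09 (limma adjusted p = 0.235 and 0.248). The part of these shifts in the members' results was not tested, and in bulk RNA a change in the number of cells of a kind and a change in RNA per cell cannot be told apart.

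The promoters of Prkaa1 and Prkaa2 are shown as those of the catalytic subunits, of which Prkaa2 was the scarcest member and the one with the largest log2 fold change among the 10 members. They are the 250 bases upstream of the RefSeq start on the rat build GRCr8, at chr2:55967525-55967774 on the plus strand for Prkaa1 and at chr5:125108325-125108574 on the minus strand for Prkaa2. Capitals mark each GC box, searched as GGGCGG on both strands, with overlapping matches counted.
Prkaa1: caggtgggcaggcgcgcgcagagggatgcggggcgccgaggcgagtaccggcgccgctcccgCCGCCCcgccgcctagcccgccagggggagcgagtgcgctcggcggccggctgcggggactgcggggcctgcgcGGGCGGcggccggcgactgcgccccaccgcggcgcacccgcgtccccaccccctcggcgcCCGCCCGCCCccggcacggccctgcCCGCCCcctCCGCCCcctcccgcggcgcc
Prkaa2: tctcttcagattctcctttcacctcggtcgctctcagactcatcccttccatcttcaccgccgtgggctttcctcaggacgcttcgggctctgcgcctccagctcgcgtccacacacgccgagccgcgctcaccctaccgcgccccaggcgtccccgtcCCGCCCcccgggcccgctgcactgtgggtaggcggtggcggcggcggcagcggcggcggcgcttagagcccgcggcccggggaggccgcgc
The Prkaa1 promoter held 6 GC boxes and 45 CpG dinucleotides with a GC content of 86.4%, and the Prkaa2 promoter held 1 GC box and 33 CpG dinucleotides with a GC content of 72.8%. The median over all 33469 RefSeq promoters of this length was a GC content of 51.2% and 5 CpG dinucleotides. RefSeq promoters were found for 9 members, with 2 for Prkag2, and Camkk2 was not matched. Of these 10 promoters 8 held a GC box, against 30.5% of all promoters. A CCAAT box, searched as CCAAT on both strands, was found in 1 of them, that of Stk11, against 34.0% of all, and TATAAA in 0, against 12.9% of all. The promoters of comparison were taken whether or not their genes were expressed here, while all members were expressed. These matches describe the letters only.

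All 10 members were expressed above the minimum of 1 TPM in every library. Cab39, which encodes MO25α, was the most abundant with a mean of 56.3 TPM over the 6 libraries. It was followed by Stk11 with 49.4 TPM, Prkag1 with 42.3 TPM, Prkab1 with 31.5 TPM, Strada with 18.2 TPM and Prkaa1 with 17.3 TPM. Below these came Prkab2 with 9.90 TPM, Camkk2 with 6.47 TPM, Prkag2 with 4.08 TPM and Prkaa2 with 1.93 TPM. Prkaa2 lay above only 5.69% of the 12564 tested genes in mean level, Prkaa1 above 48.0% and Cab39 above 78.1%. Of the 9 pairs of neighbours in this order, 8 had ranges that did not overlap in either group. Strada and Prkaa1 overlapped in the OM plus EMPA group and were in this order in 5 of 6 libraries.

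**Figure D1:**
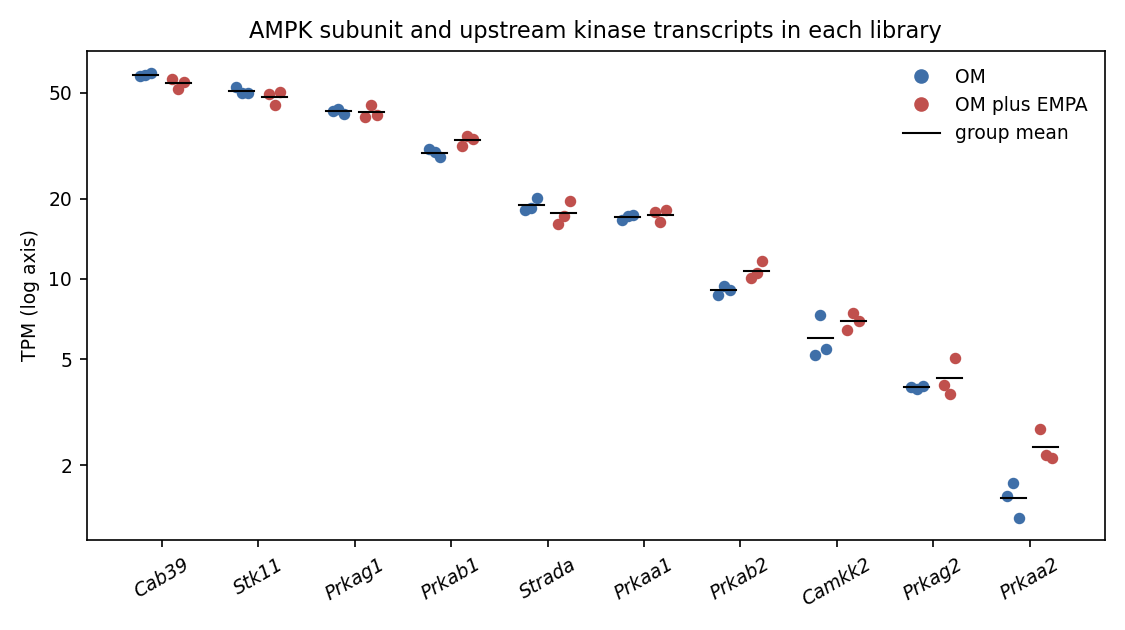
TPM of each member in each library on a log axis, ordered by mean level, with OM libraries in blue, OM plus EMPA libraries in red and group means as bars. Prkaa2 lies lowest at 1.27 to 2.74 TPM, and its red points lie above its blue points, as do those of Prkab1 and Prkab2.

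None of the 10 members passed the test between the groups. It was limma on log2(TPM + 1) over 12564 genes with Benjamini-Hochberg adjustment and a threshold of 0.05, and across all genes it called 6.92%, with 2.06% higher and 4.86% lower in the OM plus EMPA group (259 and 611 genes, or 394 and 380 with median-ratio scaling). At an unadjusted p under 0.05 there were 3 members, Prkaa2, Prkab1 and Prkab2, against 24.1% of all tested genes. The same 3 were higher in every OM plus EMPA library than in any OM library, where 7.85% of all genes were. Cab39 was lower in every OM plus EMPA library, as were 22.5% of all genes. These comparisons of single libraries use TPM as deposited, and the shares of all genes were not computed with median-ratio scaling. The median log2 fold change of the members was 0.06 and that of all tested genes -0.05.

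Prkaa1 encodes α1, the catalytic subunit of most tissues. It was at 17.87, 16.29 and 18.14 TPM in the OM plus EMPA libraries and at 16.66, 17.19 and 17.37 TPM in the OM libraries. The groups overlapped, and the lowest and the highest library were both in the OM plus EMPA group. Its log2 fold change was 0.03 (SE 0.06, 95% interval -0.12 to 0.17, limma adjusted p = 0.830), and it was -0.00 without OM plus EMPA replicate 3. In the authors' table Prkaa1 lies on chromosome 2 from 54240137 to 54275978 on the plus strand.

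Prkaa2 encodes α2, the catalytic subunit abundant in skeletal and cardiac muscle. It was at 2.74, 2.19 and 2.12 TPM with empagliflozin and at 1.53, 1.71 and 1.27 TPM without it. Every library with empagliflozin lay above every OM library, though all 6 values were low. The means were 2.35 ± 0.340 and 1.50 ± 0.221 TPM (SD, n = 3 each), a ratio of 1.56. On the log2(TPM + 1) scale the difference was 0.42 (SE 0.13, 95% interval 0.11 to 0.73), with an unadjusted p of 0.0145 and an adjusted p of 0.110 from limma, so the call was not made. The scale of log2(TPM + 1) understates the change of a gene this low, and with 0.1 added in place of 1 the log2 fold change was 0.61 (limma adjusted p = 0.115). The adjusted p ranged from 0.0718 to 0.254 over the 13 alternative settings. Prkaa2 lies on chromosome 5 from 119813226 to 119879543 on the minus strand in the authors' table.

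Prkab1, which encodes the scaffold subunit β1, was at 31.58, 34.48 and 33.54 TPM with empagliflozin and at 30.72, 29.82 and 28.62 TPM in OM alone. The groups did not overlap, but the nearest libraries were under 1 TPM apart. Its log2 fold change was 0.15 (SE 0.06, 95% interval 0.03 to 0.28, limma adjusted p = 0.145). Its paralog Prkab2, encoding β2, was at 10.05, 10.51 and 11.63 TPM with empagliflozin and at 8.72, 9.44 and 9.07 TPM in OM alone. Here too each library with empagliflozin was above each without. A log2 fold change of 0.22 was found (SE 0.08, 95% interval 0.03 to 0.40, limma adjusted p = 0.150). Both stayed positive under all 13 alternatives, at 0.13 to 0.21 for Prkab1 and 0.16 to 0.27 for Prkab2, and neither was called under any of them (lowest adjusted p 0.0745 and 0.0960 from limma, both with median-ratio scaling of the libraries, which divides each library by its median ratio over genes).

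Prkag1 encodes γ1, the nucleotide-binding subunit most widely expressed. It was at 40.53, 44.89 and 41.03 TPM with empagliflozin and at 42.46, 43.40 and 41.52 TPM in OM alone. The values of OM alone lay within the range of those with empagliflozin. The log2 fold change was -0.01 (SE 0.05, 95% interval -0.14 to 0.11, limma adjusted p = 0.920), and it was 0.05 with median-ratio scaling of the libraries. Prkag2 encodes γ2, a subunit known for inherited cardiomyopathy. It was at 4.0, 3.69 and 5.03 TPM with empagliflozin and at 3.92, 3.87 and 3.96 TPM in OM alone. OM plus EMPA replicate 3 was highest by about 1 TPM, and the other libraries were close together. Its log2 fold change was 0.08 (SE 0.12, 95% interval -0.19 to 0.35, limma adjusted p = 0.703), and it was -0.02 without that library. The gene of γ3, Prkag3, was not listed.

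**Figure D2:**
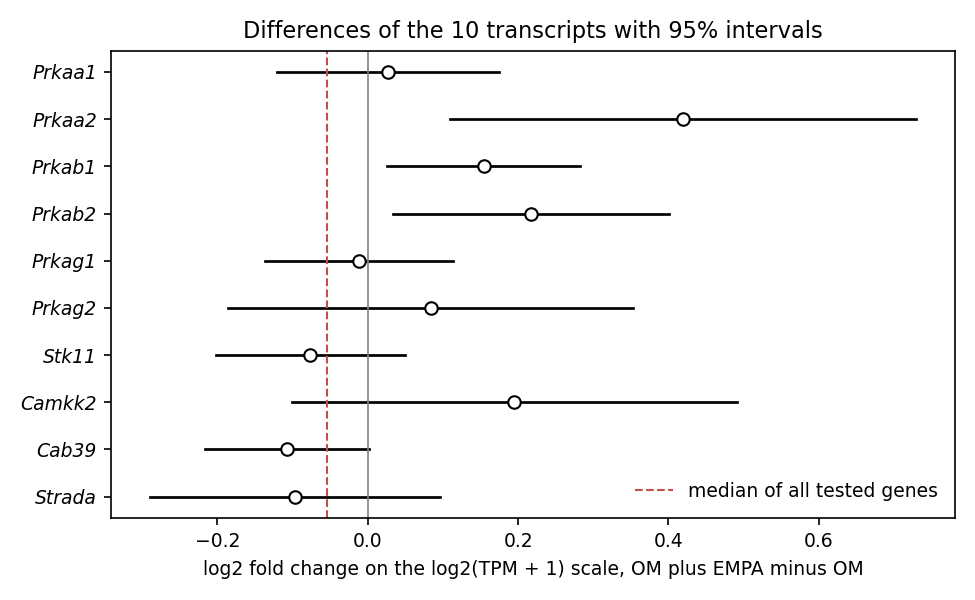
Difference of each member in log2(TPM + 1), as OM plus EMPA minus OM, with its 95% interval from limma, against the median of all tested genes (dashed line). The intervals of Prkaa2, Prkab1 and Prkab2 lie above 0 before adjustment, and Prkaa2 has the widest, 0.11 to 0.73.

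By subunit class, transcripts of β were higher relative to γ in the cells with empagliflozin. The ratio of summed γ to summed β TPM was 1.06 ± 0.0322 (SD, n = 3) with empagliflozin and 1.20 ± 0.0170 (SD, n = 3) in OM alone. The ratio does not depend on how libraries are scaled, and its groups did not overlap. It was looked at after the values were seen and was not tested. The ratios of β to α and of γ to α were computed beside it, and their groups overlapped. They were 2.23 ± 0.207 and 2.35 ± 0.244 with empagliflozin and 2.09 ± 0.0738 and 2.50 ± 0.0550 in OM alone (SD, n = 3 each). Prkab1 and Prkab2 together were at 41.63, 44.99 and 45.17 TPM with empagliflozin and at 39.44, 39.26 and 37.69 TPM in OM alone. The difference in log2 TPM was 0.18 (exact permutation test, 2-sided, p = 0.1, the smallest that 3 against 3 samples can give, and adjusted p = 0.3 over 6 measures). The α transcripts summed to 19.8 ± 1.14 and 18.6 ± 0.359 TPM (SD, n = 3 each), a difference in log2 TPM of 0.09 (exact permutation p = 0.3, adjusted p = 0.6). It was 0.15 with median-ratio scaling, 0.14 when OM plus EMPA replicate 2 was left out and 0.06 when replicate 1 of that group was. The γ transcripts summed to 46.4 ± 2.05 and 46.4 ± 0.895 TPM (SD, n = 3 each), with a difference in log2 TPM of -0.00 (exact permutation p = 1, adjusted p = 1), and of 0.059 with median-ratio scaling. In each library the α transcripts were the scarcest class, with 2.02 to 2.43 β transcripts and 2.16 to 2.63 γ transcripts for each α transcript.

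**Figure D3:**
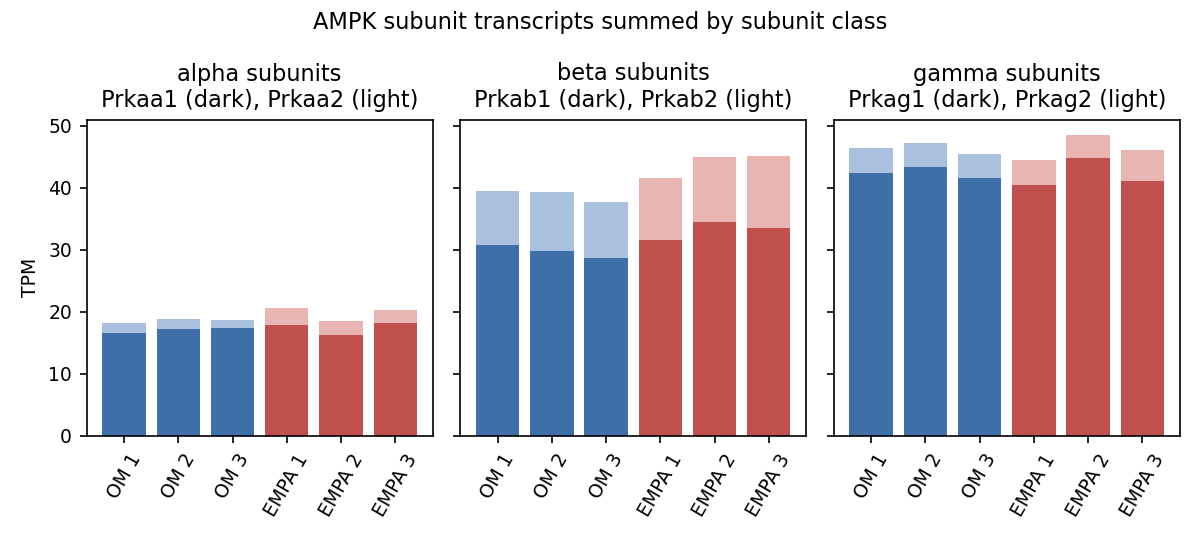
Summed TPM of the α, β and γ subunit genes in each library, with the major isoform in the dark and the minor isoform in the light shade. The β sum is 37.7 to 39.4 TPM in the OM libraries and 41.6 to 45.2 TPM in the OM plus EMPA libraries, while the γ sums of the OM libraries lie within the range of the OM plus EMPA libraries.

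Within each class 1 isoform made up most of the transcripts. Prkaa1 was 86.7%, 88.1% and 89.5% of α transcripts in the OM plus EMPA libraries and 91.6%, 91.0% and 93.2% in the OM libraries. The share was lower in each library with empagliflozin, by 3.78 percentage points in the mean (exact permutation test, 2-sided, p = 0.1, the smallest possible, and adjusted p = 0.3 over 6 measures). The ratio of Prkaa1 to Prkaa2 was 6.52 to 13.7 over the libraries. Prkab1 was 75.6 ± 1.22% and 76.6 ± 1.12% of β transcripts (SD, n = 3 each, exact permutation p = 0.4, adjusted p = 0.6). Prkag1 was 90.8 ± 1.67% and 91.6 ± 0.260% of γ transcripts (SD, n = 3 each, exact permutation p = 0.7, adjusted p = 0.84). These are shares within a library and are not altered by scaling.

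Stk11 encodes LKB1, the main kinase that phosphorylates α. It was at 49.23, 45.04 and 50.03 TPM with empagliflozin and at 52.34, 49.91 and 49.94 TPM in OM alone. The ranges overlapped, and the log2 fold change was -0.08 (SE 0.05, 95% interval -0.20 to 0.05, limma adjusted p = 0.436). It was -0.03 without OM plus EMPA replicate 2 and -0.02 with median-ratio scaling. Strada encodes STRADα, the pseudokinase that holds LKB1 active in the cytoplasm. It was at 16.06, 17.24 and 19.54 TPM against 18.09, 18.38 and 20.13 TPM, with overlap and a log2 fold change of -0.10 (SE 0.08, 95% interval -0.29 to 0.10, limma adjusted p = 0.520). That value was -0.04 when OM plus EMPA replicate 1 was left out, -0.17 when replicate 3 of that group was, -0.05 when OM replicate 3 was and -0.04 with median-ratio scaling. Its paralog Stradb, which is no member, was at 10.10, 9.30 and 8.56 TPM against 11.23, 12.13 and 12.11 TPM. The Stradb groups did not overlap, and its log2 fold change was -0.32 (SE 0.08, limma adjusted p = 0.0590).

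Cab39 was at 56.14, 51.54 and 54.84 TPM with empagliflozin and at 57.93, 58.06 and 59.20 TPM in OM alone. In TPM as deposited, each library with empagliflozin was below each OM library, with the least distance between OM plus EMPA replicate 1 and OM replicate 1. Median-ratio scaling divides these libraries by 0.992 and 1.03, which puts the former above the latter, so the groups then overlap. The log2 fold change was -0.11 (SE 0.05, 95% interval -0.22 to 0.00, limma adjusted p = 0.215). With median-ratio scaling it was -0.05. Cab39l, the paralog encoding MO25β, was at 32.4 to 35.4 TPM over the 6 libraries.

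Camkk2, which encodes the calcium-dependent AMPK kinase, was at 6.43, 7.47 and 6.94 TPM with empagliflozin and at 5.20, 7.34 and 5.44 TPM in OM alone. OM replicate 2 lay among the OM plus EMPA libraries and the other OM libraries lay below them. The log2 fold change was 0.20 (SE 0.13, 95% interval -0.10 to 0.49, limma adjusted p = 0.396), and it ranged from 0.11 without OM replicate 1 to 0.33 without OM replicate 2 with 1 library left out (limma adjusted p = 0.683 and 0.124). Camkk1 was at 1.94 to 2.81 TPM. Stk11 transcripts outnumbered those of Camkk2 by 6.03 to 10.1 times in each library.

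Other genes around AMPK were read from lists written with the members in view. Of the genes tested, 5.88% were called in the upstream list, 0% among genes acting on AMPK, 0% among related kinases, 13% among substrates, 8.33% in the oxidation list and 11.1% among nucleotide enzymes, against 6.92% of all genes. With 9 to 23 genes tested in each, these are 0 to 3 called genes a list. An unadjusted p under 0.05 was found for 6 of 17 upstream rows and 6 of 23 substrates. It was found for 5 of 12 oxidation genes and 4 of 9 nucleotide enzymes, against 24.1% of all tested genes. In TPM as deposited, 5, 6, 7 and 2 in these lists were lower in every OM plus EMPA library than in any OM library. In the same order 2, 3, 1 and 3 were higher, and of all genes 22.5% were lower and 7.85% higher. Among paralogs of the LKB1 and AMPK complexes and further upstream genes, 17 rows were tested for 16 of 19 symbols, because 1 gene is listed at 2 positions. Of these Calm2, a calmodulin gene, rose from 555 ± 7.16 to 617 ± 1.97 TPM (log2 fold change 0.15, limma adjusted p = 0.0485) and 0 fell. Calm2 shares sequence with other genes of its family, so its reads may be assigned uncertainly, and it lost the call when any 1 library was left out. Beside Stradb, the nearest gene that did not pass was Axin1, a scaffold that brings LKB1 to AMPK (log2 fold change -0.17, limma adjusted p = 0.102). The median of the list was -0.05, as was that of all genes. Of 15 tested phosphatases, kinases and ubiquitin ligases that act on AMPK, 0 passed the test. An unadjusted p under 0.05 was found for 3, against 24.1% of all tested genes, and the median log2 fold change was -0.07. In TPM as deposited, 7 of the 15 were lower and 0 higher in every OM plus EMPA library than in any OM library. The smallest p-values belonged to Prkacb, a catalytic subunit of protein kinase A (-0.15, limma adjusted p = 0.143), and Gsk3b, the kinase GSK-3β (-0.14, limma adjusted p = 0.195).

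LKB1 also activates a family of kinases related to AMPK, of which 10 of 12 were listed and tested. None passed the test, and with TPM as deposited 6 of the 10 had an unadjusted p under 0.05, where 24.1% of all tested genes had. The median log2 fold change was -0.10, and -0.05 over all tested genes. It was negative for 7 of the 10 and positive for 3. In TPM as deposited, 6 were lower and 1 higher in every OM plus EMPA library than in any OM library. Of all genes, 22.5% and 7.85% were. Nuak1 was at 101.05, 98.02 and 96.78 TPM with empagliflozin and at 73.91, 88.18 and 84.77 TPM in OM alone, all of the first above all of the second. Its log2 fold change was 0.26 (SE 0.07, limma adjusted p = 0.0578). It passed at an adjusted p of 0.0485 without OM replicate 2 and at 0.0350 with median-ratio scaling. Under the other alternatives Nuak1 did not pass, with a limma adjusted p of up to 0.147. Mark2, a kinase of cell polarity, had a log2 fold change of -0.20 (limma adjusted p = 0.119). With median-ratio scaling that of Mark2 was -0.145 (limma adjusted p = 0.238).

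Of 23 tested genes of AMPK substrates, 2 rose and 1 fell. Srebf1, the transcription factor of fatty acid synthesis, was at 77.37, 70.68 and 72.22 TPM with empagliflozin and at 60.48, 60.97 and 59.73 TPM in OM alone, and rose by 0.28 (SE 0.05, limma adjusted p = 0.0164). Tsc2, which encodes tuberin, a brake on mTORC1, was at 16.81, 16.88 and 17.36 TPM against 20.55, 21.40 and 20.39 TPM and fell by 0.27 on the log2 scale (SE 0.05, limma adjusted p = 0.0284). Crtc2, a coactivator of CREB, and Gys1, the muscle glycogen synthase, had log2 fold changes of -0.26 and -0.20 (limma adjusted p = 0.0542 and 0.0561). The median of the list was -0.05. With 1 library left out, 0 to 2 of these genes were higher, 0 without OM replicate 1 or 3, and 0 were lower in each case.

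Of 12 tested genes of oxidation and catabolism downstream of AMPK, Ucp2, a mitochondrial carrier, was at 24.2 ± 1.11 against 18.3 ± 0.907 TPM and rose (log2 fold change 0.39, SE 0.06, limma adjusted p = 0.0137) and 0 fell. The call was lost when OM plus EMPA replicate 1, OM plus EMPA replicate 2 or OM replicate 3 was left out, where the largest adjusted p was 0.0577 from limma. Hk2, a hexokinase, and Slc2a1, the glucose transporter GLUT1, had log2 fold changes of -0.25 and -0.13 (limma adjusted p = 0.0907 and 0.154). The median was -0.15, against -0.05 over all tested genes. A negative log2 fold change was found for 10 of the 12, and for 8179 of all 12564 tested genes. Ppargc1a, the coactivator PGC-1α, was not listed. Of 9 tested enzymes of adenine nucleotides and phosphocreatine, Adk, the adenosine kinase that makes AMP, rose from 28.9 ± 0.854 to 34.2 ± 0.507 TPM (log2 fold change 0.24, limma adjusted p = 0.0305) and 0 fell, with a median of 0.08. Adk lost the call when any 1 library was left out. Ckb, the brain-type creatine kinase, was at 17.4 ± 2.23 against 12.6 ± 1.47 TPM (log2 fold change 0.44, limma adjusted p = 0.0604), and the adenylate kinase gene Ak4 had a log2 fold change of -0.26 (limma adjusted p = 0.118).

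From KEGG enrichment of its own differentially expressed genes, the paper states that empagliflozin can activate AMPK signaling. The counts given here come from another test, limma on TPM, and do not repeat that enrichment. The AMPK signaling pathway of KEGG was taken as annotated in the authors' table. It held 100 listed genes, including all 10 members, and 94 were tested. Of these 4 rose and 3 fell, 7.45% against 6.92% of all genes, and their median log2 fold change was -0.05, as over all genes. All 7 were outside the members. Among those that rose, Scd, Scd2 and Srebf1 act in lipid synthesis. Scd was at 370.10, 366.62 and 367.83 TPM with empagliflozin and at 245.55, 264.90 and 243.46 TPM in OM alone (log2 fold change 0.55, SE 0.04, limma adjusted p = 0.00187). Scd2 rose by 0.38 (SE 0.05, limma adjusted p = 0.00599). Scd and Scd2 are stearoyl-CoA desaturases with similar sequences, so reads may be split between them.

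Among the 3 pathway genes that fell were Pfkp, a phosphofructokinase of glycolysis, and Tsc2. Pfkp was at 78.72, 81.07 and 84.92 TPM with empagliflozin and at 110.92, 103.93 and 105.05 TPM in OM alone, well apart (log2 fold change -0.38, SE 0.05, limma adjusted p = 0.00543). Scd, Scd2 and Pfkp were still called by limma with any 1 library left out. Left-out libraries gave 2 to 4 higher genes, 2 without OM replicate 1 or 3, and 1 lower gene in each case. With median-ratio scaling 1 was lower.

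**Figure D4:**
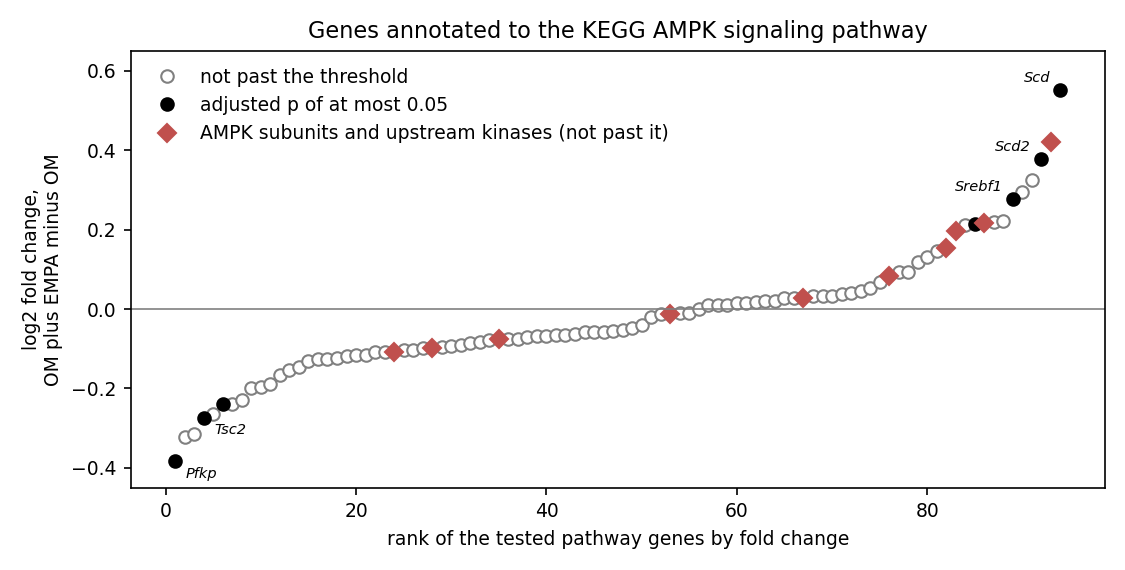
Difference in log2(TPM + 1), as OM plus EMPA minus OM, of the 94 tested genes annotated to the KEGG AMPK signaling pathway, ordered by value. Filled circles passed the threshold of 0.05, with those described in the text named, and open circles did not, and red diamonds are the 10 members, which spread from -0.11 (Cab39) to 0.42 (Prkaa2) without passing.

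The genes whose log2(TPM + 1) followed Prkaa2 most closely over the 6 libraries were Sync, Dhcr7, Kat2b and Acly, with Pearson's r of 0.996, 0.994, 0.994 and 0.993. With 2 groups in 6 libraries a high r needs no direct tie between genes. Among the 12564 tested genes, 206 with a symbol reached an r of 0.9 with Prkaa2. Of these 4, Dhcr7, the last enzyme of cholesterol synthesis, passed the test between groups (log2 fold change 0.33, limma adjusted p = 0.0233). The genes closest to Prkaa1 were Klhdc1, Pemt, MGC116202, AABR07019088.1 and Myo1d, with r of 0.988, 0.987, 0.984, 0.983 and 0.982. Among the same tested genes, 46 with a symbol reached an r of 0.9 with Prkaa1. None of these 5 passed the test, and their adjusted p-values were 0.628 to 0.870 from limma. Genes picked for following a member over the same libraries tend to differ between groups where that member does. Their test results therefore lend no support to a link with Prkaa2 or Prkaa1.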

How the data were processed

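RNA of 6 VSMC samples, 3 with and 3 without empagliflozin, had been sequenced. Tools named in the submitters' processing notes are DESeq2, RSEM, fastp and HISAT2 2.0.5, with no role for each. The genome build: not given in the sources used here. The authors deposited TPM per gene and sample, estimated by them (its header names no unit, and the sums of the columns are those of TPM). This table also holds their own fold changes and p-values, and a second table a subset of its rows, and neither was used. No columns of unknown sample were found. TPM keep no depth, so no precision by depth can be given. Coordinates are those of the authors' table, and promoters are those of RefSeq on GRCr8, another source.

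The 12564 of 13526 genes whose mean reached 1 TPM were fitted by group on log2(TPM + 1) with limma 3.58.1 in R 4.3.3, with a trend of variance with mean (4 residual and 3.8 prior degrees of freedom), with Benjamini-Hochberg adjustment over all of them. The paper's methods give the threshold of 0.05. Subunit sums and shares were compared by exact permutation. The fit was tested on simulated data. Other steps ran in Python 3.11.15 (numpy 2.4.6, pandas 2.3.3, matplotlib 3.10.9, scipy 1.17.1). Members and gene lists were chosen with earlier results of these data known. From each list the text names the called genes, up to 8 by smallest p, and the 2 next by p, and, for Prkaa1 and Prkaa2, the 5 genes of highest correlation. Stradb is also given with its values as the paralog of a member, Cab39l and Camkk1 were named after their values were seen, and genes not listed are named as such. Results of some genes that the rule names are not reported here, though counts include them. Alternatives were a pseudocount of 0.1, no filter, a minimum of 1 TPM in every library, the replicate number as a block, median-ratio scaling, TPM without mitochondrially encoded genes, no variance trend and each library left out.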

Additional observations from a re-analysis of the deposited data

How the results depend on the processing

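The count of called members was 0 higher and 0 lower in limma under all 13 alternatives. Of the members, Stk11, Strada, Cab39, Camkk2, Prkaa2, Prkab1 and Prkab2 kept their sign throughout, though not their size (-0.10 to -0.031 for Stk11 and -0.17 to -0.036 for Strada with 1 library left out). Prkaa1 and Prkag2 turned sign without OM plus EMPA replicate 3, and with any 1 library left out their log2 fold changes ranged from -0.00064 to 0.073 and from -0.022 to 0.16. Prkag1 turned to 0.046 with median-ratio scaling, to 0.016 without mitochondrially encoded genes, and was between -0.057 and 0.015 with 1 library left out, positive when OM plus EMPA replicate 1, OM plus EMPA replicate 3 or OM replicate 2 was left out. Over all tested genes the calls were 259 higher and 611 lower, and they were 449 and 951 with the replicate block, 394 and 380 with median-ratio scaling, which moved the median log2 fold change of all genes from -0.05 to 0.00, 154 and 366 without the variance trend, and 80 to 216 and 245 to 438 with 1 library left out, fewest without OM plus EMPA replicate 2. Median-ratio scaling gave differences of 0.24 for the β sum and 0.059 for the γ sum in log2 TPM.

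The replicate numbers are shared by the groups, but nothing in the labels says that they pair samples. Deviations from the group means correlated at 0.0979, 0.162 and 0.0575 for equal numbers over the tested genes, and each sample correlated best with its own number, a hint from the data and not the design. With the replicate block the KEGG pathway had 6 genes lower in place of 3, the substrates 3 lower in place of 1, the upstream list 2 higher in place of 1, the nucleotide enzymes 2 higher in place of 1 and the oxidation list 1 lower in place of 0. With median-ratio scaling the counts were 1 lower for the KEGG pathway, 0 lower for the substrates, 1 higher for the related kinases and 2 higher for the nucleotide enzymes, of which there were also 2 without mitochondrially encoded genes. Without the variance trend 0 upstream genes, 1 substrate and 0 nucleotide enzymes were higher, and without the filter 0 upstream genes. With 1 library left out the KEGG pathway had 2 to 4 higher and 1 lower, the upstream list 0 higher, the related kinases 0 to 1 higher, the substrates 0 to 2 higher and 0 lower, the oxidation list 0 to 1 higher and the nucleotide enzymes 0 higher. The causes of these moves were not tested.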
